A study of Mus musculus with 2 samples.

Results

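Transcripts of 5 ligands of the tumour necrosis factor (TNF) superfamily, Tnfsf8, Tnfsf10, Tnfsf11, Tnfsf14 and Fasl, were followed in CD8 T cells taken from MC38 tumours, a mouse colon carcinoma grown in mice. The ligands were chosen by symbol, and all 5 were among the 32285 genes of the count matrices. The study addressed how NK cells bear on CD8 T cell differentiation in the tumour. One 10x Genomics 5′ single-cell library came from WT mice with the treatment label PBS and the library name CD8Iso, and another came from WT mice given a-NK1.1 antibody, which targets a receptor on NK cells. Both were collected 9 days after implantation. The label PBS and the abbreviation Iso leave the injection given to the control mice unresolved, and the number of pooled mice was not given in the sources used here. NK cells were targeted by antibody rather than by genotype, and NK1.1-positive T cells carry the same target. Levels were measured in barcodes with at least 500 detected genes, a mitochondrial share under 10% and at least 1 UMI each of a CD3 gene (Cd3d, Cd3e or Cd3g) and a CD8 gene (Cd8a or Cd8b1). This left 6901 of 7866 barcodes of the control library and 8164 of 10111 of the NK-depleted library.

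TNF superfamily ligands are mostly made as membrane proteins that act as trimers on receptors of neighbouring cells, and some are released by cleavage. Fas ligand (Fasl) and TRAIL (Tnfsf10) engage receptors with a death domain, which assemble FADD and caspase-8 and can kill the cell that carries the receptor; activated CD8 T cells use Fas ligand beside perforin and granzymes. CD30 ligand (Tnfsf8), RANKL (Tnfsf11) and LIGHT (Tnfsf14) engage receptors that signal through TRAF adaptors to NF-κB: CD30 on activated lymphocytes, RANK on dendritic cells and osteoclast precursors, and HVEM and the lymphotoxin beta receptor on lymphocytes, myeloid cells and stroma. TRAIL is a known target of interferon, and transcripts of Fas ligand, RANKL and LIGHT are known to follow T cell receptor stimulation.

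In GRCm38, the build also called mm10, Tnfsf8 lies at chr4:63831308-63861347 on the minus strand, Tnfsf10 at chr3:27317028-27342427 on the plus strand, Tnfsf11 at chr14:78277445-78308043, Tnfsf14 at chr17:57189492-57194177 and Fasl at chr1:161780689-161788495, the last 3 on the minus strand. All 5 are protein-coding genes in GENCODE M21, and none overlaps another annotated gene. The upstream sequences of Tnfsf10, Tnfsf8 and Tnfsf14 are shown. In at least 1 library these ligands were past 1.5-fold with the interferon-induced gene Ifit3 or the T cell receptor response gene Nr4a1. Fasl was also higher with Ifit3, and Tnfsf11 with Nr4a1, in both libraries without passing that fold, and their sequences are not shown. They are RefSeq promoter sequences of GRCm38.p6, read 5′ to 3′ on the strand of the gene. Each begins 250 bases before the RefSeq start and ends at or before the start in GENCODE, except that of Tnfsf10, which runs 27 bases past it to include its last match. Capitals mark the interferon regulatory factor (IRF) core AANNGAAA in Tnfsf10 (chr3:27316827-27317054, plus strand) and Tnfsf8 (chr4:63861348-63861534, minus strand). In Tnfsf14 (chr17:57194182-57194431, minus strand) they mark the NFAT core GGAAA and the AP-1 site TGANTCA. Matches on either strand were counted.
Tnfsf10: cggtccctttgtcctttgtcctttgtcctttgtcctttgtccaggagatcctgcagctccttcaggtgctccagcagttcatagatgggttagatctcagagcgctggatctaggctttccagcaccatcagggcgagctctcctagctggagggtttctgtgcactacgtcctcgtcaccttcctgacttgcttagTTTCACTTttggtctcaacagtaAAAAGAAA
Tnfsf8: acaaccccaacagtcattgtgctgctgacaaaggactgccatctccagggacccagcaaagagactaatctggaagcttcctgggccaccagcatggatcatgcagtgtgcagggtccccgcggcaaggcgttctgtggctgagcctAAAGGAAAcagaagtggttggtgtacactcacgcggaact
Tnfsf14: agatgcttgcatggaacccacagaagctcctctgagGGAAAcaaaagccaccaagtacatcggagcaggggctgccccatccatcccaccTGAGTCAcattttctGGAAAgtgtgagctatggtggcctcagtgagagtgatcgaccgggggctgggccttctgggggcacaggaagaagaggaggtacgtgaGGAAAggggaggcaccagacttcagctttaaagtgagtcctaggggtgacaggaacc
Over the 250 bases before the RefSeq start, Tnfsf10 held the IRF core at 2 places, 53 to 46 and 30 to 23 bases before the start. Tnfsf8 held it at 1 place, 103 to 96 bases before the start, where it overlaps an NFAT core. The IRF core occurs in 21.3% of 32851 promoters of that length, so a match is common. Tnfsf11, Tnfsf14 and Fasl held no IRF core. Tnfsf14 held 3 NFAT cores, a motif in 55.6% of promoters, and 1 AP-1 site, a motif in 6.75%. NFAT cores were found in all 5 promoters, with 2 in Fasl and 1 each in Tnfsf8, Tnfsf10 and Tnfsf11. None of the 5 promoters matched the longer interferon-stimulated response element, searched as 2 copies of GAAA with 2 bases between them (2.98% of promoters), or the STAT element TTCNNNGAA (7.02%). A match describes letters in a window and is not evidence of a bound site.

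The cells held 106462391 UMIs in the control and 125332343 in the NK-depleted library, with medians of 11444 and 12289.5 UMIs per cell. Each group is 1 library, so there was no replicate spread and no test, and p-values are not given. Levels are in CPM, the UMIs of a gene scaled to the total UMIs of the same cells, and every interval is a 95% interval of counting error alone. Shares of cells with a UMI were compared after each cell was thinned to 5500 UMIs, which kept 6246 and 7384 cells. Genes of the labelled cell type were present: 98.1% and 97.7% of cells had a UMI of Cd8a, and Cd4 stood at 0.432 and 0.207 CPM. Of 4 NK cell markers, Ncr1 was near 0 (0.169 and 0.0239 CPM), while Klrb1c, the gene of the antibody's target NK1.1, stood at 3.70 and 5.13 CPM, Fcer1g at 41.7 and 64.3 CPM and Tyrobp at 33.0 and 17.1 CPM, and the 4 summed to 78.6 and 86.5 CPM. Trdc, a gamma delta T cell gene, stood at 2.01 and 5.49 CPM. The part of these cells in the ligand levels was not tested. Dendritic cell markers summed to 223 and 145 CPM, with all 6 detected in both libraries, and 115 and 89 cells carried at least 10 of their UMIs. Ligand levels in cells with no UMI of a short list of myeloid, dendritic and B cell markers (among them Lyz2, C1qa, C1qb, C1qc, Csf1r, H2-Aa, H2-Ab1, Flt3, Siglech and Cd79a), called marker-free here, were close to those in all cells (for Tnfsf8, 14.4 and 29.3 CPM). The listed markers Cd68 and Ighm were not used for this, since 14.7% and 39.2% of control cells had a UMI of them. The dendritic cell markers Cd74 (7.19% of control and 7.15% of NK-depleted cells) and Fscn1 (1.70% and 1.22%) were not used either. Cells with a UMI of these alone thus remained among the marker-free cells. The 2 libraries shared 391 barcodes, of which 151 and 61 were in the cells measured. Without them, no ratio of a ligand between the libraries changed its direction except that of Tnfsf11, which lay next to equal levels either way (log2 -0.0049 and 0.0051).

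Tnfsf8 was the ligand that differed most between the libraries, and it was higher after NK depletion. The control level was 14.1 CPM (13.4 to 14.8) and the level after depletion 27.9 CPM (26.9 to 28.8), which is 1.97 (1.86 to 2.10) times the control. Tnfsf10 was lower, at 83.7 CPM (82.0 to 85.5) against 56.8 (55.5 to 58.2), a ratio of 0.679 (0.658 to 0.701). Fasl was lower by less, at 153 CPM (151 to 155) against 122 (120 to 124), a ratio of 0.797 (0.780 to 0.815). The killing ligands and CD30 ligand thus moved in opposite directions between the libraries, each by more than counting error. Tnfsf14 stood at 7.25 and 5.93 CPM, a ratio of 0.818 (0.738 to 0.905), and Tnfsf11 at 10.7 CPM in both libraries, a ratio of 0.997 (0.920 to 1.08). The interval of Tnfsf11 includes no difference, and its direction turned with the scaling of the libraries.

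Tnfsf8 was the 1 ligand of 5 past 1.5-fold by CPM in all cells, while Tnfsf10 was past it too (lower) after thinning, as a mean over cells and in cells without Mki67 (log2 -0.62, -0.64 and -0.69). Of the 10397 genes of at least 2 CPM, 2.01% were 1.5-fold higher and 4.56% were 1.5-fold lower. Those shares are 209 and 474 genes by CPM, 319 and 328 after TMM scaling and 339 and 313 after median-of-ratios scaling. The median log2 ratio was -0.29 over the 5 ligands and -0.06 over all genes tested. At equal depth, Tnfsf8 had a UMI in 6.16% (5.58 to 6.79) of the control cells, against 13.7% (12.9 to 14.5) after NK depletion. The mean among cells with a UMI, before thinning, was 1.84 and 1.78 UMIs, and 54.2% and 58.5% of those cells held 1 UMI. For Tnfsf10, 34.7% and 25.3% of thinned cells had a UMI, and positive cells held a mean of 2.32 and 1.90 UMIs. For Fasl the shares were 54.8% and 46.5% and the means 3.15 and 2.66 UMIs. The shares for Tnfsf11 (4.24% and 4.58%) and Tnfsf14 (3.03% and 2.93%) had overlapping intervals.

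**Figure D1:**
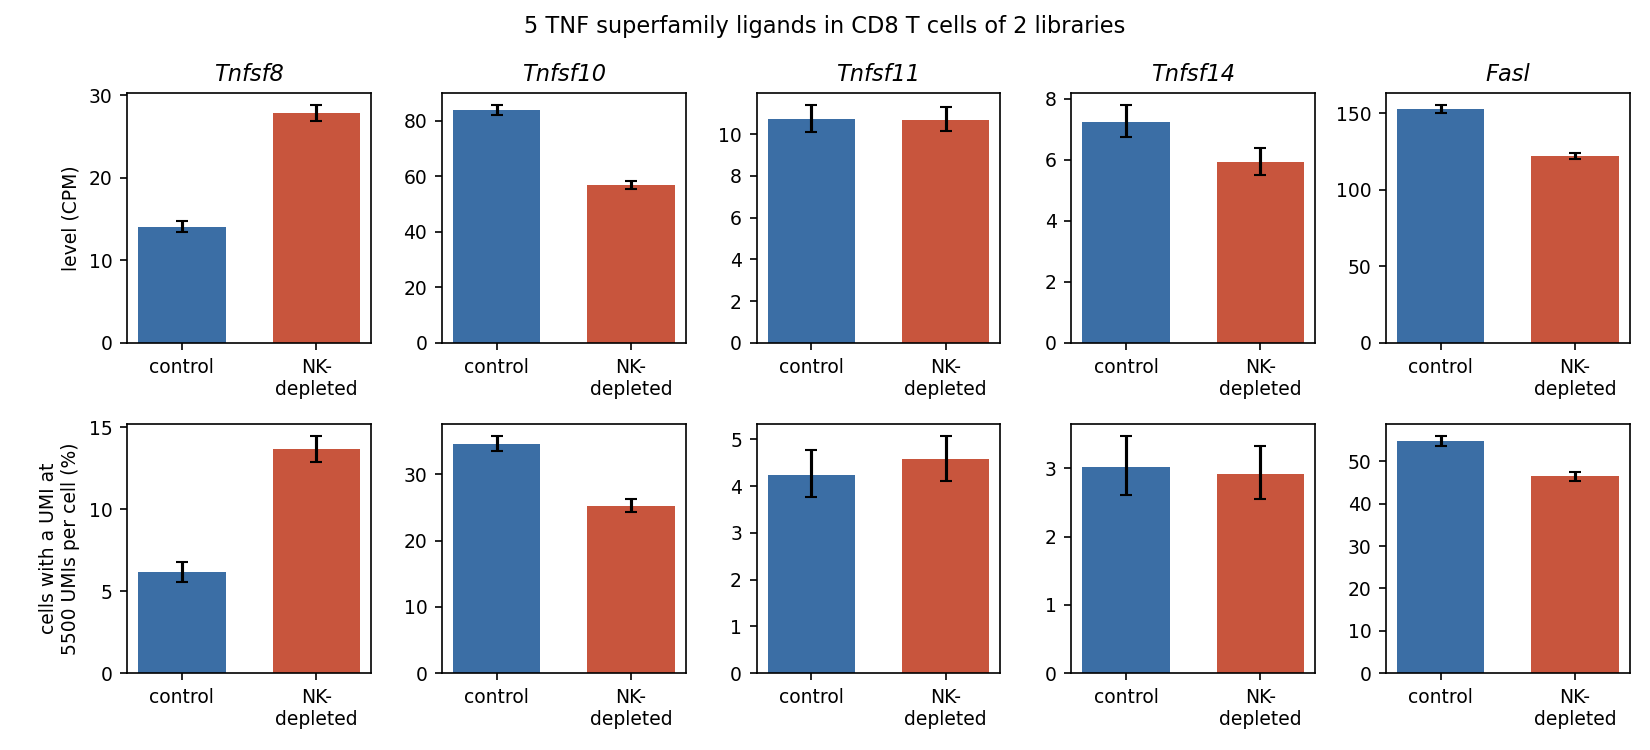
Level of each ligand in CPM (upper row) and share of cells with at least 1 UMI after thinning to 5500 UMIs per cell (lower row) in the control and NK-depleted libraries; each bar is 1 library and error bars are 95% counting intervals. Tnfsf8 was higher after NK depletion, 14.1 against 27.9 CPM, and Tnfsf10 and Fasl were lower.

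To look for free RNA, barcodes with at least 3 UMIs of myeloid markers and no CD3 or CD8 UMI were examined, 48 in the control and 26 in the NK-depleted library. Fasl had a UMI in 1 of 48 and 1 of 26, and Tnfsf8 and Tnfsf14 in 0 of each. A count of 0 allows shares among such barcodes of up to 6.25% and 11.5% by a limit of 3 counts. By the Clopper-Pearson interval it allows up to 7.40% and 13.2%. Tnfsf11 had 3 UMIs in 1 control barcode, 25.1 CPM (5.17 to 73.2) against 10.7 CPM in the control T cells, and none after NK depletion. Tnfsf10 had 1 UMI after NK depletion, 39.2 CPM (0.993 to 219), and none in the control. The median depth of these barcodes was 903.5 and 822 UMIs, far below that of the T cells. Leaving out barcodes with a CD3 or CD8 UMI also left out those that held free RNA of these T cell genes. Low counts of the ligands partly follow from that choice, so these barcodes do not bound the background in the T cells.

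Within each library the 5 ligands were set against 5 genes that mark CD8 T cell states: Tcf7, the transcription factor TCF-1 of naive, memory and progenitor cells; Havcr2, the inhibitory receptor TIM-3 of effector and exhausted cells; Mki67, a marker of cycling; Ccr2, a chemokine receptor; and Il2. Cells with at least 1 UMI of a status gene were compared with cells without one. A cell without a UMI may still express the gene, and cells with one were often deeper (for Havcr2, medians of 17841.5 against 9226 UMIs in the control library). Of the 25 pairs of ligand and status gene, 6 were higher and 7 lower with the status gene in both libraries beyond counting error. In 3 pairs the libraries pointed in opposite directions, each beyond counting error, and 9 did not have the same call in both.

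Tnfsf8 was higher in Tcf7-positive, in Havcr2-negative and in Mki67-negative cells in both libraries, but was not limited to them: 1422 of its 3492 UMIs after NK depletion lay in cells without a Tcf7 UMI. In the control library it stood at 32.1 CPM (30.3 to 34.1) in cells with a Tcf7 UMI and 5.18 CPM (4.67 to 5.74) in cells without one, a ratio of 6.20 (5.51 to 6.99). In the NK-depleted library the levels were 50.8 and 16.8 CPM and the ratio 3.03 (2.83 to 3.24). Tnfsf8 was the 1 ligand past 1.5-fold with Tcf7 in either library, where 6.59% of genes in the control and 6.91% in the NK-depleted library were that much higher. At equal depth, Fasl in both libraries (log2 -0.91 and -0.72) and Tnfsf11 after NK depletion (-1.34) were also past it, lower with Tcf7. At equal depth, 17.8% of Tcf7-positive and 3.08% of Tcf7-negative control cells had a UMI of Tnfsf8, against 27.2% and 9.94% after NK depletion.

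The gap between the libraries was wider in cells without a Tcf7 UMI. Their ratio of NK-depleted over control was 3.24 (2.89 to 3.65), against 1.58 (1.47 to 1.70) in cells with one, and these intervals do not overlap. Over the thinned cells, the ratio was 3.01 at 0 Tcf7 UMIs, 1.61 at 1, 1.60 at 2, 1.20 (0.875 to 1.66) at 3 to 4 and 1.19 (0.704 to 1.98) at 5 to 9. In the last 2 groups, the interval includes no difference between the libraries.

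Havcr2 marked the opposite side. Tnfsf8 stood at 6.51 CPM in control cells with a Havcr2 UMI and 23.8 CPM in those without one, a ratio of 0.274 (0.243 to 0.307). After NK depletion it stood at 13.2 and 50.3 CPM, a ratio of 0.262 (0.243 to 0.282). It was the 1 ligand past 1.5-fold lower with Havcr2, among 8.69% of genes in the control and 6.02% in the NK-depleted library. The relative drop was alike in both libraries although the levels were about 2 times higher after depletion (ratio 2.02 with Havcr2 and 2.12 without). Tnfsf8 was likewise the 1 ligand past 1.5-fold lower in Mki67-positive cells, 8.59 against 19.7 CPM in the control and 20.1 against 40.2 CPM after NK depletion, where 4.31% and 4.51% of genes were that much lower. With Ccr2 it was lower by less, at ratios of 0.710 and 0.741. By CPM in all cells no ligand passed 1.5-fold with Ccr2 in either library (1.45% of genes higher and 0.789% lower in the control, 0.942% and 0.806% in the NK-depleted library). Other settings took 2 ligands past it, both lower with Ccr2. Control Tnfsf11 was at log2 -0.68 at equal depth and -0.61 in cells without Mki67. Tnfsf8 was at -0.59 in the control with at least 2 Ccr2 UMIs and at -0.67 after NK depletion in cells without Mki67.

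**Figure D2:**
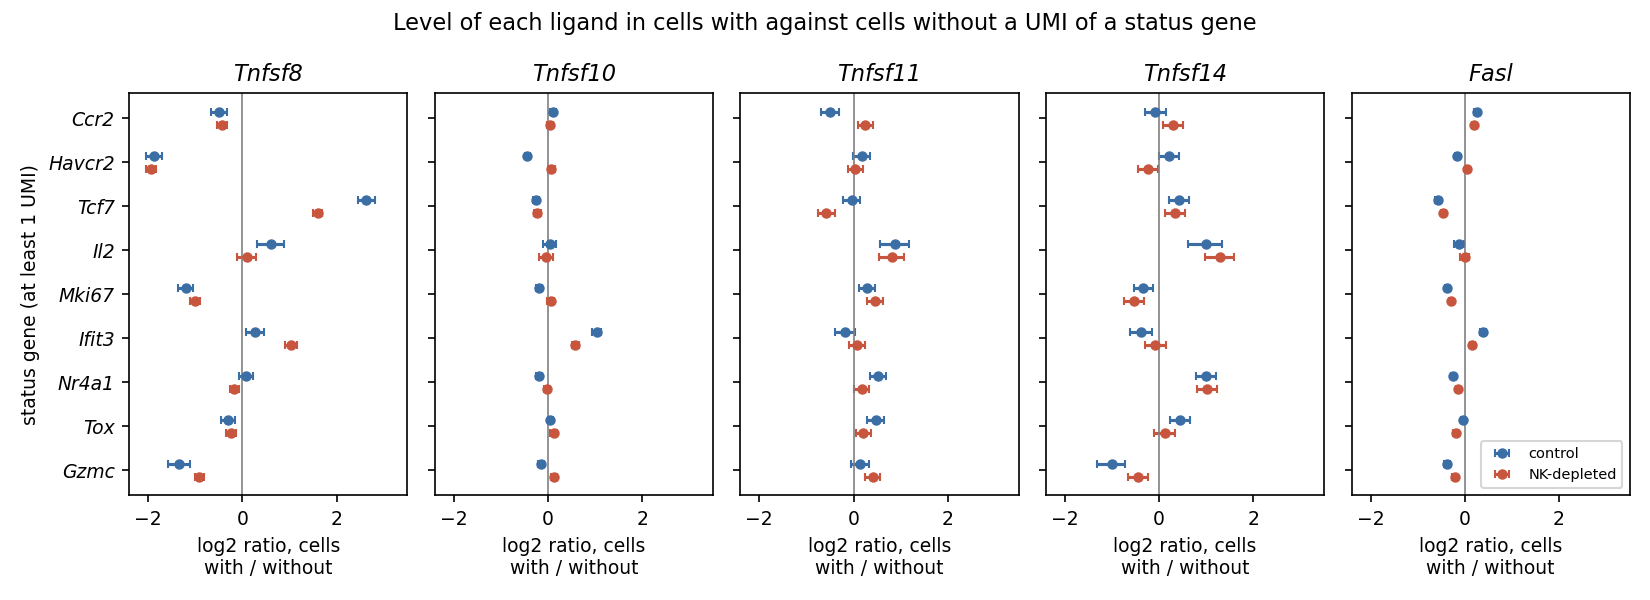
Log2 ratio of the level of each ligand in cells with over cells without a UMI of each of 9 status genes, in the control and NK-depleted libraries, with 95% counting intervals. Tnfsf8 lies far to the right for Tcf7 and far to the left for Havcr2 in both libraries, while most values of Tnfsf10 and Fasl lie near 0.

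When cells were split by Ccr2, Havcr2, Tcf7 and Mki67 at the same time, all 16 groups held at least 50 cells in each library. Tnfsf8 was higher in the NK-depleted library in 16 of 16 groups. The same group had the highest Tnfsf8 in both, cells with Tcf7 alone (53.5 CPM in the control, 70.9 CPM after NK depletion). The lowest group in both was cells with Havcr2 and Mki67 alone (1.29 and 4.56 CPM). The widest gap was in cells with none of the 4 genes, where Tnfsf8 stood at 9.02 CPM over 1325 control cells and 53.5 CPM over 1034 NK-depleted cells. With each group weighted by its mean share of UMIs over both libraries, the ratio was 2.12. How far cell make-up beyond these 16 groups enters the library difference was not tested.

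**Figure D3:**
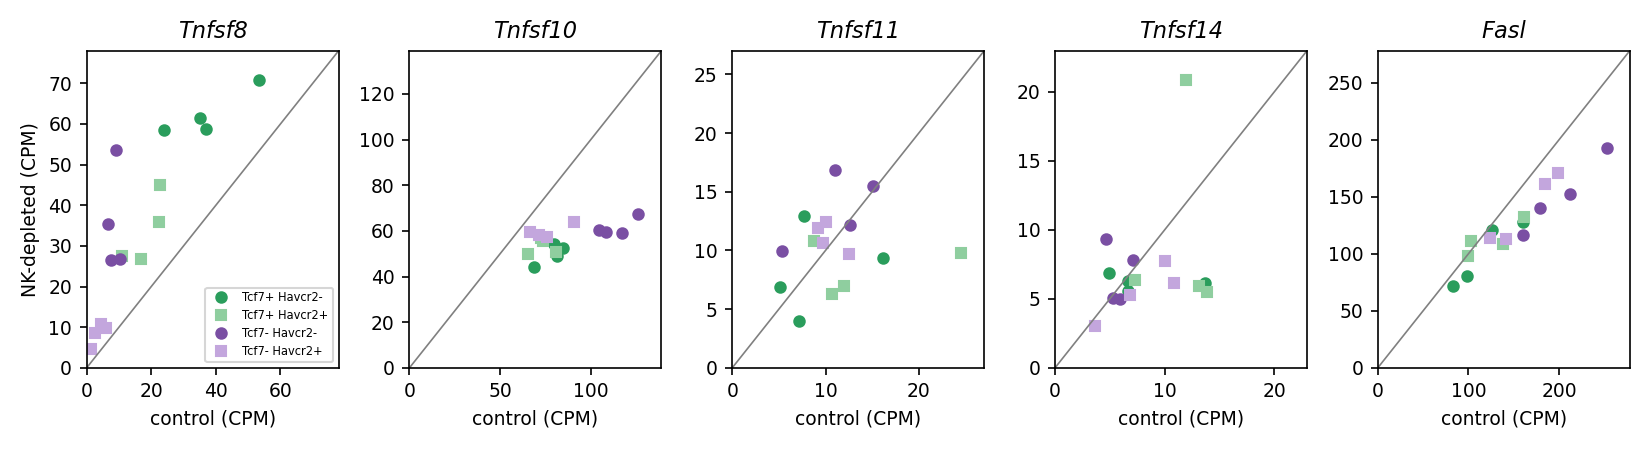
Level of each ligand in the NK-depleted library (vertical axis, CPM) against the control library (horizontal axis, CPM) in 16 groups of cells split by Ccr2, Havcr2, Tcf7 and Mki67; colours and symbols give Tcf7 and Havcr2 status and the line marks equal levels. All 16 Tnfsf8 points lie above the line and all 16 Tnfsf10 points below it.

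Tnfsf8 and Tnfsf10 related differently to Ifit3, an interferon-induced gene at 495 CPM in the control and 246 CPM after depletion. Over all thinned control cells, Tnfsf8 did not climb with Ifit3, at 15.7 CPM in cells with 0 UMIs of Ifit3 and 14.3 CPM (10.5 to 19.1) in cells with at least 10. In NK-depleted cells it stood at 21.3 CPM (19.3 to 23.4) at 0 UMIs, 32.5 at 1, 36.2 at 2, 43.7 at 3 to 4, 55.7 at 5 to 9 and 106 CPM (87.1 to 128) at 10 or more, the last over 185 cells. Levels climbed over the steps of Ifit3 in the NK-depleted library, and the library ratio ran from 1.36 (1.14 to 1.63) at 0 to 7.42 (5.21 to 10.7) at 10 or more. Among cells with neither Tcf7 nor Havcr2, NK-depleted levels were 19.3 CPM at 0 Ifit3 UMIs, 36.9 at 1 to 4 and 73.8 at 5 or more. The control levels there were 9.25, 9.13 and 10.6 CPM. In control cells with Havcr2 and no Tcf7 UMI, however, Tnfsf8 ran from 2.45 CPM (1.22 to 4.39) over 4.95 to 9.09 CPM (4.70 to 15.9) on 11, 17 and 12 UMIs, and in the same cells after NK depletion from 4.96 over 12.96 to 21.9 CPM. In all control cells without a Tcf7 UMI it ran from 5.79 CPM (4.31 to 7.61) to 10.4 CPM (8.24 to 12.9). In contrasts with over without an Ifit3 UMI, Tnfsf8 was the 1 ligand past 1.5-fold after NK depletion (ratio 2.04, 1.87 to 2.22, where 2.64% of genes were that much higher). In the control its ratio was 1.20 (1.05 to 1.37).

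Tnfsf10 was higher with Ifit3 in both libraries. In the control it ran over the same steps from 50.6 CPM (46.6 to 55.0) through 65.3, 84.7, 97.4 and 115 to 208 CPM (193 to 225). After NK depletion it ran from 44.1 CPM (41.3 to 47.1) through 60.8, 63.4, 75.6 and 87.5 to 127 CPM (106 to 151). Each step was at or above the one before in both libraries, and the control was the higher library in every step. With over without an Ifit3 UMI, Tnfsf10 was the 1 ligand past 1.5-fold in the control (ratio 2.05, 1.92 to 2.19, among 4.89% of genes) and lay just under that fold after NK depletion, with an interval of 1.42 to 1.58. In cells without an Ifit3 UMI, Tnfsf10 stood at 45.5 CPM in the control and 42.5 CPM after NK depletion, a ratio of 0.933 (0.862 to 1.01). In thinned cells with 0 UMIs of Ifit3 that ratio was 0.871 (0.783 to 0.969), so the interval includes no difference in the first and not in the second. In cells with one it stood at 93.4 and 63.6 CPM, a ratio of 0.681 (0.657 to 0.705). With each step of Ifit3 weighted by its mean share of UMIs over both libraries, the log2 ratio of Tnfsf10 between the libraries was -0.34, against -0.56 without weighting.

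**Figure D4:**
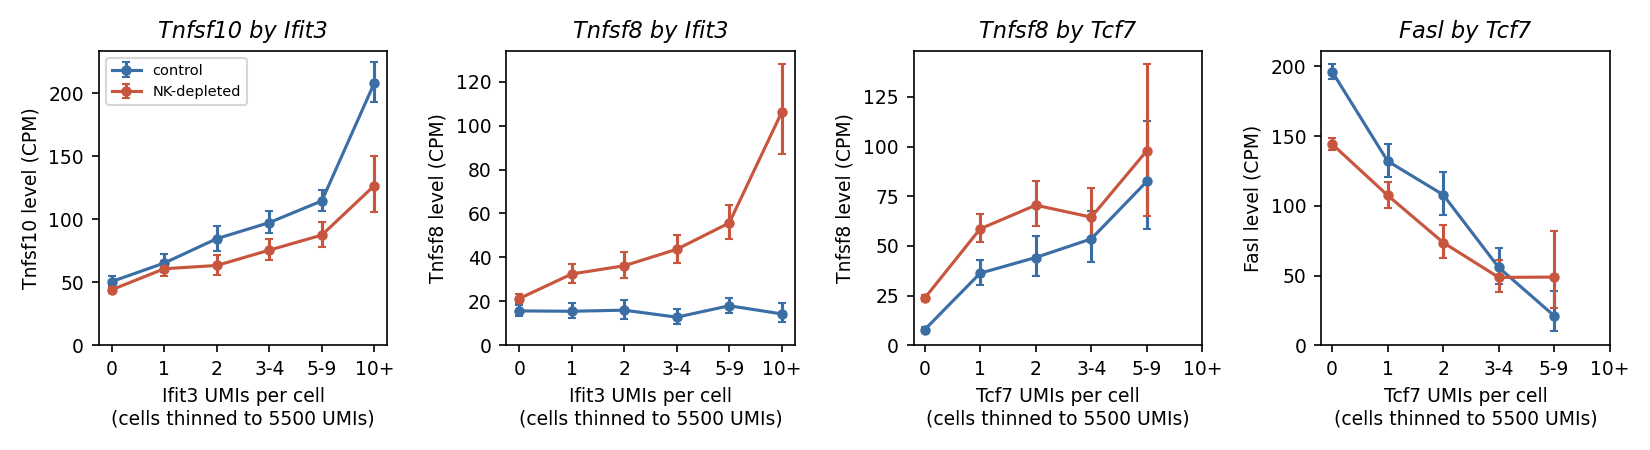
Levels (CPM, with 95% counting intervals) of Tnfsf10 and Tnfsf8 by the number of Ifit3 UMIs per cell, and of Tnfsf8 and Fasl by the number of Tcf7 UMIs per cell, in cells thinned to 5500 UMIs; lines join the steps of 1 library, and steps under 20 cells are not drawn. Tnfsf8 climbs with Ifit3 in the NK-depleted library, from 21.3 to 106 CPM, and stands at 15.7 and 14.3 CPM at both ends in the control.

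Tnfsf10 was lower in the NK-depleted library in 16 of 16 groups of Ccr2, Havcr2, Tcf7 and Mki67 status. In the control library its 4 highest groups were the 4 with neither Tcf7 nor Havcr2, from 105 to 126 CPM, while the other groups lay between 65.2 and 90.5 CPM. In the NK-depleted library all 16 lay between 44.3 and 67.4 CPM. The cells without Havcr2 therefore showed the wider gap. Tnfsf10 stood at 98.0 CPM in them in the control and 55.1 CPM after NK depletion, a ratio of 0.562 (0.536 to 0.589), against 72.4 and 58.0 CPM in cells with Havcr2, a ratio of 0.801 (0.768 to 0.835). Its relation to Havcr2 accordingly pointed in opposite directions, with a ratio of 0.739 (0.709 to 0.771) in the control and 1.053 (1.004 to 1.105) after NK depletion. Tcf7-positive cells had less Tnfsf10 in both libraries, at ratios of 0.842 and 0.856.

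Fasl was higher in cells without Tcf7. In the control library it stood at 115 CPM in Tcf7-positive and 172 CPM in Tcf7-negative cells, a ratio of 0.670 (0.647 to 0.695). After NK depletion the levels were 97.5 and 134 CPM, a ratio of 0.729 (0.703 to 0.756). Over the thinned control cells, Fasl was 196 CPM (191 to 202) at 0 Tcf7 UMIs, 132 at 1, 108 at 2, 55.8 at 3 to 4 and 21.1 CPM (10.1 to 38.9) at 5 to 9, the last over 86 cells. After NK depletion it was 144, 108, 73.7, 48.7 and 49.0 CPM (26.8 to 82.1) over the same steps, with 52 cells in the last. The libraries stood apart at 0 to 2 Tcf7 UMIs, and their intervals overlapped from 3 UMIs up.

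Fasl was modestly higher with Ccr2 in both libraries, at 170 against 143 CPM in the control and 132 against 115 CPM after NK depletion. It was lower with Mki67 by CPM, at 133 against 173 CPM and 112 against 137 CPM. At equal depth the shares of cells with a Fasl UMI had overlapping intervals. They were 54.4% (51.9 to 56.9) with and 55.0% (53.5 to 56.4) without Mki67 in the control. After NK depletion they were 45.7% (43.8 to 47.6) and 46.9% (45.4 to 48.3). The highest of the 16 groups in both libraries was cells with Ccr2 and none of Havcr2, Tcf7 and Mki67 (253 and 193 CPM), and the lowest was cells with Tcf7 alone (83.1 and 72.1 CPM), the group with the highest Tnfsf8. Fasl was lower after NK depletion in 15 of 16 groups. It was also higher over the steps of Ifit3, from 136 CPM at 0 UMIs to 230 CPM at 10 or more in the control, and from 118 to 194 CPM after NK depletion. With Nr4a1, a T cell receptor response gene, Fasl was lower by CPM in both libraries. The ratios were 0.840 (0.814 to 0.866) in the control and 0.903 (0.874 to 0.934) after NK depletion. At equal depth the shares of cells with a Fasl UMI had overlapping intervals with and without Nr4a1.

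Tnfsf14, the gene of LIGHT, was sparse and was higher in cells with Nr4a1, although 5.86% and 4.50% of those cells had a UMI of it at equal depth. It stood at 9.82 CPM in cells with and 4.92 CPM in cells without a UMI of Nr4a1, an early target of T cell receptor signalling, in the control, a ratio of 1.997 (1.719 to 2.322). After NK depletion the levels were 8.50 and 4.19 CPM, a ratio of 2.03 (1.75 to 2.36). It was the 1 ligand past 1.5-fold with Nr4a1 in both libraries, where 2.68% and 1.26% of genes were that much higher. Over the thinned control cells it was 4.71 CPM at 0 Nr4a1 UMIs, 9.81 at 1, 16.7 at 2, 28.9 at 3 to 4 and 155 CPM (98.2 to 232) at 5 to 9, the last over 27 cells. After NK depletion it was 5.16, 5.95, 15.1, 29.4 and 51.9 CPM (22.4 to 102), the last over 28 cells. The control value at 5 to 9 UMIs leaned on few cells, and without the cell with most Tnfsf14 it was 105 CPM.

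Il2, the growth factor made on T cell stimulation, marked Tnfsf14 and Tnfsf11. Tnfsf14 stood at 13.7 CPM in Il2-positive and 6.93 CPM in Il2-negative control cells, a ratio of 1.98 (1.53 to 2.54), and at 13.3 and 5.46 CPM after NK depletion, a ratio of 2.44 (1.96 to 3.02). For Tnfsf11 the levels were 19.0 and 10.3 CPM in the control, a ratio of 1.84 (1.48 to 2.27), and 17.9 and 10.2 CPM after NK depletion, a ratio of 1.75 (1.45 to 2.09). With Tnfsf8 in the control (ratio 1.53, 1.24 to 1.86), 3 ligands were past 1.5-fold there, against 2 after NK depletion, while 2.75% and 1.6% of all genes were that much higher. Most Il2-positive cells had 1 UMI of Il2 (221 of 247 and 290 of 320), and a single NK-depleted cell held 369 of the 1020 Il2 UMIs of its library. In the 26 control and 30 NK-depleted cells with at least 2 Il2 UMIs, Tnfsf14 stood at 39.9 and 93.6 CPM and Tnfsf11 at 39.9 and 57.7 CPM. Without the cell with the most Tnfsf14, those Tnfsf14 levels were 33.5 and 73.5 CPM. Tnfsf11 likewise stood at 35.6 and 40.4 CPM without the cell with the most Tnfsf11. At 5500 UMIs per cell, 7 and 12 of 112 Il2-positive cells in each library had a UMI of Tnfsf14, so these values rest on few cells. Both weaker control calls depended on the setting: the log2 ratio of Tnfsf8 with Il2 was 0.33 in marker-free cells, and that of Tnfsf11 was 0.30 at equal depth, each under 1.5-fold. With at least 2 Il2 UMIs against 0, Tnfsf8 was past 1.5-fold in both libraries, with ratios of 2.65 (1.63 to 4.07) and 3.05 (2.35 to 3.89). After NK depletion, however, 1 of those 30 cells held 29 of their 66 Tnfsf8 UMIs. Leaving out the cell with the most Tnfsf8 lowered the level from 36.5 to 26.5 CPM in the control and from 84.6 to 49.5 CPM after NK depletion. Cells with 0 Il2 UMIs stood at 13.8 and 27.8 CPM.

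Tnfsf14 was lower with Mki67 by CPM, at 6.42 against 8.09 CPM in the control and 5.05 against 7.33 CPM after NK depletion. At equal depth, 2.36% (1.66 to 3.23) of control cells with and 3.25% (2.76 to 3.80) without Mki67 had a Tnfsf14 UMI. After NK depletion the shares were 2.35% (1.80 to 3.01) and 3.24% (2.75 to 3.78), and the intervals overlapped in both libraries. Tnfsf14 was also lower with Gzmc, a granzyme gene of strongly activated cells, at ratios of 0.497 (0.403 to 0.607) and 0.732 (0.632 to 0.848). Tnfsf8 and Tnfsf14 were the 2 ligands past 1.5-fold lower with Gzmc in the control, among 6.54% of genes, and Tnfsf8 was the 1 such ligand after NK depletion, among 4.29%. Tnfsf8 stood at 6.61 CPM with and 16.7 CPM without Gzmc in the control, and at 20.3 and 38.3 CPM after NK depletion. Gzmc itself stood at 101 and 426 CPM in the 2 libraries. None of the 5 ligands passed 1.5-fold with Tox, a transcription factor of exhausted T cells that stood at 74.1 and 24.7 CPM (0.491% of genes higher and 1.29% lower with Tox in the control, 0.903% and 0.418% after NK depletion).

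Tnfsf11 had the same level in both libraries, but its distribution over cells differed. In the control library it was lower in Ccr2-positive than Ccr2-negative cells, 8.51 against 12.0 CPM, a ratio of 0.710 (0.622 to 0.808). After NK depletion it was higher, 11.8 against 9.94 CPM, a ratio of 1.19 (1.06 to 1.32). With Tcf7 it stood at 10.5 and 10.8 CPM in the control and at 8.03 and 12.0 CPM after NK depletion, ratios of 0.9709 (0.8555 to 1.1003) and 0.670 (0.590 to 0.760). At equal depth the log2 ratios with Tcf7 were -0.57 and -1.34, and in cells without Mki67 -0.51 and -1.11, so Tnfsf11 was lower with Tcf7 in both libraries under those settings. It was higher with Mki67 in both, at ratios of 1.21 (1.08 to 1.36) and 1.37 (1.22 to 1.54), or log2 0.07 and 0.24 at equal depth. Over the 16 groups it was higher after NK depletion in 9 and lower in 7, and the group with the highest level was not the same in both libraries. Tnfsf11 was low where Ifit3 was high, at 2.80 CPM over 9 UMIs in control cells with at least 10 UMIs of Ifit3 and 2.95 CPM over 3 UMIs in NK-depleted ones.

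At 5500 UMIs per cell, 73.9% of control and 68.0% of NK-depleted cells had a UMI of at least 1 of the 5 ligands, and 26.4% and 21.6% had UMIs of at least 2. No thinned cell carried all 5. Tnfsf8 and Fasl were found together less often than their shares alone would give. In the control, 35.8% (31.0 to 40.9) of cells with Tnfsf8 had Fasl, against 56.1% (54.8 to 57.4) of cells without Tnfsf8. After NK depletion these shares were 40.5% (37.4 to 43.6) and 47.4% (46.2 to 48.6). Cells with both made up 0.654 and 0.872 of the number expected from the separate shares. Tnfsf11 and Tnfsf14 were found together in 13 control and 23 NK-depleted cells, 1.62 and 2.33 times the expected number. After NK depletion, 6.80% (4.36 to 10.0) of cells with Tnfsf11 had Tnfsf14, against 2.74% (2.37 to 3.15) of cells without, and in the control the intervals overlapped (2.64 to 8.24 and 2.53 to 3.40).

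Of 13 other ligands of the superfamily, 5 reached 2 CPM in a library, and none of the 5 passed 1.5-fold. Tnf stood at 15.5 and 16.4 CPM, Lta (lymphotoxin alpha) at 8.59 and 11.3, Ltb (lymphotoxin beta) at 627 and 572, Tnfsf9 (4-1BB ligand) at 6.07 and 6.36 and Tnfsf13b (BAFF) at 3.95 and 3.21 CPM. Their median log2 ratio was 0.07, so the size of the Tnfsf8 difference was not seen in these other ligands. Of 9 receptors of the 5 ligands, only Fas (10.4 CPM in both) and Tnfrsf14, which encodes HVEM (2.76 and 2.06 CPM), reached 2 CPM, and neither passed 1.5-fold. The CD30 gene Tnfrsf8 stood at 1.13 and 1.20 CPM and the TRAIL receptor gene Tnfrsf10b at 1.61 and 1.99 CPM. The decoy TRAIL receptor genes Tnfrsf22 and Tnfrsf23 stood at 0.648 and 0.957 CPM and at 1.19 and 1.62 CPM. The RANK gene Tnfrsf11a stood at 0.845 and 0.391 CPM, Ltbr at 0.366 and 0.176 CPM, and Tnfrsf11b, the RANKL decoy, at 0 and 0.0160 CPM.

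All 10 genes of the death receptor machinery were measured and none passed 1.5-fold. By CPM all 10 were below equal levels, with a median log2 ratio of -0.22, while 8 of 10 were below after TMM or median-of-ratios scaling. Among those furthest from equal were Birc2, the ubiquitin ligase cIAP1 (80.7 and 64.6 CPM), Cflar, the caspase-8 inhibitor c-FLIP (126 and 104), and the initiator caspase Casp8 (140 and 118). Of 13 TRAF and NF-κB genes, 1 was 1.5-fold lower and none higher, which is near the 4.56% and 2.01% of all genes tested, with a median log2 ratio of -0.11 by CPM and -0.03 after TMM scaling. That gene was Tnfaip3, the NF-κB inhibitor A20, at 265 and 164 CPM. Rel stood at 105 and 71.9 CPM, Traf5 at 36.1 and 25.2 CPM and Map3k14, the kinase NIK, at 25.0 and 20.3 CPM.

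Of 11 genes induced by type I interferon, 6 were 1.5-fold lower after NK depletion by CPM, against 4.56% of all genes tested, and 5 after either other scaling, and none was higher. Their median log2 ratio was -0.61. Beside Ifit3, the antiviral effector genes Ifit2 (187 CPM in the control, 97.6 after depletion), Ifit1 (353 and 187) and Oas1a (51.9 and 27.9) were among the lower ones. Tnfsf10 lay with this group in direction, with a log2 ratio of -0.56. Of 10 early T cell receptor response genes, 2 were 1.5-fold lower by CPM, against 4.56% of all genes tested, and none was higher. These were Nr4a2 (156 and 90.0 CPM) and Egr2 (3.48 and 2.18 CPM, named after its value was seen). By median-of-ratios scaling 1 was 1.5-fold lower. The median log2 ratio was -0.25. The nuclear receptor genes Nr4a3 (38.5 and 29.8 CPM) and Nr4a1 (55.5 and 43.5 CPM) and the activation marker Cd69 (316 and 252 CPM) stood lower by less. What these genes contribute to the levels of the ligands was not tested.

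Over the 16 groups of cells, the genes whose levels ran most like those of a ligand were found among 6963 genes, by the lower of the Pearson correlations in the 2 libraries. These correlations describe 16 groups cut from the same library, which share its depth and scaling. For Tnfsf8 they included Treml2 (0.928 in the control, 0.954 after NK depletion) and Emb (0.927 and 0.935). For Tnfsf10 they were the immunoproteasome subunit gene Psmb8 (0.884 and 0.882), the interferon-induced gene Ifi27l2a (0.858 and 0.826) and Lgals3bp (0.899 and 0.814). For Fasl they were Crot (0.934 and 0.953), the small GTPase gene Rac2 (0.976 and 0.933) and Ptprcap, which encodes a CD45-associated protein (0.933 and 0.953). For Tnfsf14 they were the NF-κB subunit gene Nfkb1 (0.624 and 0.636), Nr4a1 (0.873 and 0.601) and Csrnp1 (0.684 and 0.597). For Tnfsf11 they were Odc1, the enzyme that begins polyamine synthesis (0.792 and 0.910), Fam173a (0.741 and 0.778) and Utp11 (0.707 and 0.694). By the lower of the 2 correlations, values were higher for Tnfsf8, Tnfsf10 and Fasl than for the sparse ligands, in which some groups held few UMIs (13 in the lowest for Tnfsf14). As the top of 6963 genes over 16 groups, all these values are high by selection. The values that such a search would give without any likeness were not computed.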

How the data were processed

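Counts of unique molecular identifiers (UMIs) per gene and barcode were deposited by the authors as 1 filtered 10x matrix for each library, and the file headers name Cell Ranger 6.1.2 as the software that made them. The genome build mm10 and Seurat 4.0.6 are listed in the submitters' processing notes, and no normalized values were used. Groups were taken from the treatment label.

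UMIs of the cells that passed the filters were summed and divided by the total of the same cells. CPM carry exact Poisson intervals, ratios exact conditional binomial intervals and shares Clopper-Pearson intervals, all at 95%. They cover counting error only, and sums over cells of 1 library are not replicates. A gene was called past the fold when its higher level was at least 1.5 times its lower one, among genes of at least 2 CPM in 1 group, a descriptive size with no test. Thinning to 5500 UMIs drew UMIs without replacement and left out 655 control and 780 NK-depleted shallower cells. No doublet caller was run. Doublets were treated only through alternatives that left out cells with markers of other cell types or the 5% of cells with the most UMIs.

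The ligands, status genes and gene lists were chosen with earlier results of these data known, and the promoter motifs after the promoters had been read. Results that need some of the listed genes are not reported here. Genes named beyond the ligands and status genes were every other ligand of at least 2 CPM, every listed receptor, up to 4 genes a list with the largest ratio among those of at least 5 CPM, and the 3 genes most like each ligand. Likeness was the lower of both libraries' Pearson correlations of log2(CPM + 1), among genes of at least 10 CPM in both. T cell receptor, immunoglobulin, mitochondrial, ribosomal and unnamed genes and the status genes Ccr2, Havcr2, Tcf7, Il2 and Mki67 were left out, while the further status genes stayed in. Mx1 of the interferon list was not among the measured genes. Alternatives covered scaling, filters, depth, doublets, shared barcodes, cell weights and cell make-up. Python 3.11.15 with numpy 2.4.6, scipy 1.17.1, pandas 2.3.3 and matplotlib 3.10.9 was used, and edgeR 4.0.16 gave TMM factors alone.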

Additional observations from a re-analysis of the deposited data

Results flagged for a closer look

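In 4 of 45 pairs of ligand and status gene, the ratio of cells with over cells without the status gene lay above 1 in 1 library and below 1 in the other, each beyond counting error. With 1 library a group, none of these differences was tested, and differences are given on the log2 scale as NK-depleted minus control. The widest was that of Tnfsf11 with Ccr2, at 0.74, and its opposite directions held under each of the 5 other settings tried for status. Tnfsf10 with Havcr2 differed by 0.51. With at least 2 UMIs of Havcr2 as the criterion, its ratio after NK depletion was 1.030 with an interval of 0.979 to 1.083, which includes no difference. Tnfsf10 with Gzmc differed by 0.27, with 77.5 CPM in cells with Gzmc and 85.9 CPM in cells without it in the control, and 58.9 and 54.0 CPM after NK depletion. Tnfsf14 with Havcr2 differed by -0.45, with 7.72 CPM in cells with Havcr2 and 6.66 CPM in cells without it in the control, and 5.53 and 6.54 CPM after NK depletion. In cells without a UMI of Mki67, its log2 ratios were 0.77 and 0.30, so that its opposite directions were not kept there. With at least 2 UMIs of Havcr2 its ratios were 1.068 (0.914 to 1.247) and 0.883 (0.757 to 1.030), and both intervals include no difference.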

How the results depend on the processing

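Over 13 settings, CPM in all cells among them, 4 ligands kept the direction of their difference between the libraries (log2 of NK-depleted over control). Tnfsf8, 0.98 by CPM, was 1.08 by median-of-ratios scaling, 1.15 as a mean over cells, 1.08 weighted over the 16 groups and 1.26 over Ifit3 steps. Tnfsf10, -0.56 by CPM, was -0.47 by TMM, -0.46 by median-of-ratios, -0.69 in cells without Mki67, -0.62 after thinning, -0.64 as a mean over cells and -0.34 over Ifit3 steps. Fasl, -0.33 by CPM, was -0.24 by TMM, -0.23 by median-of-ratios, -0.42 after thinning, -0.37 as a mean over cells and -0.28 over the 16 groups. Tnfsf14, -0.29 by CPM, was -0.14 in cells without Mki67. Tnfsf11 had no direction that held, at -0.16 in cells without Mki67, 0.11 after thinning and 0.14 as a mean over cells. TMM and median-of-ratios scaling raised every log2 ratio by 0.09 and 0.10. Genes 1.5-fold higher numbered 209 by CPM, 319 by TMM, 339 by median-of-ratios and 1025 of 17957 with at least 1 UMI in each library as the filter in place of 2 CPM. Those lower numbered 474 by CPM, 313 by median-of-ratios and 2505 without the CPM filter. Of the 11 contrasts past 1.5-fold with Ccr2, Havcr2, Tcf7, Il2 or Mki67, none changed direction, and 10 or 11 stayed past it in each setting that kept all 11 (9 of 9 in cells without Mki67). Among all 50 contrasts with these genes, smaller ones did change direction: 6 at equal depth, 4 in marker-free cells, 2 with at least 2 UMIs and 0 under the stricter gene and mitochondrial filter. In cells without Mki67, 6 of 40 did. Some contrasts short of 1.5-fold by CPM passed it at equal depth. These were Fasl with Tcf7 in both libraries (-0.91 and -0.72), Tnfsf11 with Tcf7 after NK depletion (-1.34) and Tnfsf11 with Ccr2 in the control (-0.68). Tnfsf14 with Mki67 after NK depletion passed it in marker-free cells (-0.63). The cause of these shifts was not tested. Weighting by Ifit3 and status by 2 UMIs were added after seeing the data. No paired analysis was possible because each group has 1 library, and for the same reason no replicate could be left out. Tnfsf11 and Tnfsf14 had a UMI in the smallest shares of cells at equal depth (4.24% and 4.58%, and 3.03% and 2.93%), so their values rest on few cells.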
